A study of Mus musculus with 15 samples.

Results

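A group of 10 mouse genes whose proteins carry selenocysteine was examined in liver ribosome profiling across the circadian cycle. They were Gpx1, Gpx4, Selenop, Txnrd1, Txnrd2, Dio1, Msrb1, Selenof, Selenos and Selenok, chosen by gene symbol. These genes have 16 annotated RefSeq transcripts among the 28167 transcripts counted, or 10 of 20097 genes with a symbol. Livers came from wild-type C57BL/6N male mice of 8 to 10 weeks, kept in 12 h light and 12 h dark and then moved to constant darkness for 24 h. They were collected every 4 h from circadian time (CT) 0 to CT24, with 2 mice at each of 7 times and 14 libraries in all. No transgene or treatment is named, and the groups differ in time alone. Each library holds ribosome-protected mRNA fragments of whole liver, counted separately over the 5′ untranslated region (5′UTR), the coding sequence (CDS) and the 3′UTR of each transcript. The question put to the data was at what level each selenoprotein mRNA was occupied by ribosomes, and whether that level followed a 24-h course.

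Selenocysteine is a selenium-containing relative of cysteine. It is inserted at an in-frame UGA codon, which elsewhere ends translation, with the help of a stem-loop in the 3′UTR of the mRNA (the SECIS element), its binding protein Secisbp2 and the dedicated elongation factor Eefsec. Most selenoproteins are oxidoreductases with selenocysteine at the active site. The liver makes most of the selenoprotein P of the plasma, which carries selenium to other organs, and is a main site of peroxide removal and of thyroid hormone deiodination.

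The selenocysteine codon is what the 10 genes have in common, and it is shown here because its place differs between them. The sequences below were read from RefSeq annotation on GRCm38.p6 and run 5′ to 3′ on the sense strand. They begin 12 bases before the codon and end up to 12 bases after it, at the stop codon where that comes first. Capitals mark the TGA (UGA in the mRNA).
Gpx1: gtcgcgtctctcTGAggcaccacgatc
Gpx4: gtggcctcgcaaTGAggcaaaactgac
Selenop, codon 59: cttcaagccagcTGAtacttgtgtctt
Selenop, codon 377: aggaagtgaaaaTGAcattcaaactaa
Txnrd1: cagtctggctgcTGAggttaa
Txnrd2: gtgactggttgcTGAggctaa
Dio1: ggcagttgcaccTGAccttcatttctt
Msrb1: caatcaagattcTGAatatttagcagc
Selenof: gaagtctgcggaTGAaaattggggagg
Selenos: tcatctggcggcTGAaactaa
Selenok: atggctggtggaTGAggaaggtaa

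In 4 of the genes the codon lay at or near the end of the reading frame. It was codon 498 of 499 in the shorter Txnrd1 reading frame (chr10:82896037-82896039, plus strand), 526 of 527 in Txnrd2 (chr16:18477772-18477774, plus strand), 189 of 190 in Selenos (chr7:66088844-66088846, plus strand) and 92 of 94 in Selenok (chr14:29973440-29973442, plus strand). In 5 genes it was internal. It was codon 47 of 201 in Gpx1 (chr9:108339451-108339453, plus strand), codon 73 of 197 in the Gpx4 transcript NM_008162 (chr10:80054737-80054739, plus strand) and codon 126 of 257 in Dio1 (chr4:107297700-107297702, minus strand). It was codon 95 of 116 in Msrb1 (chr17:24740158-24740160, plus strand) and codon 93 of 162 in Selenof (chr3:144590645-144590647, plus strand). Selenop stood apart with 10 in-frame TGA codons in 380. The first was codon 59 (chr15:3274848-3274850, plus strand) and the other 9 lay between codons 259 and 377. Of 23539 transcripts whose annotated lengths matched the files and whose coding length was a multiple of 3, 22 transcripts of 14 genes held an in-frame TGA before the stop codon. The files give 1 sum for each CDS, so reads before and after the selenocysteine codon could not be separated.

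The libraries held 40593197 to 90458783 assigned reads (median 56446208). The summed level of 5 hepatocyte markers (Alb, Ttr, Apoa1, Tat and Cyp2e1) was 34984 to 49189 CPM (counts scaled to a fixed library size), against 64.6 to 121 for 5 Kupffer cell markers and 62.1 to 107 for 4 endothelial markers. Library CT20 replicate 2 stood apart by its pancreatic acinar transcripts (Cela2a, Cpa1 and Pnlip), which summed to 1815 CPM there and to at most 38.1 elsewhere. Library CT0 replicate 1 had the highest sums of Kupffer cell (121 CPM), endothelial (107 CPM), stellate (156 CPM, median 133) and cholangiocyte markers (8.27 CPM, median 1.43). Without either library, as with both, 0 of the 10 selenoproteins passed the test for a rhythm of CDS reads given below. Every nonzero CDS count of library CT16 replicate 2 was even, and the labels name 2 sequencing runs for it, so its counts were also analysed at their value divided by 2. Its counts and depth are printed undivided here, also where this library gives the lowest count, as for the Gpx1 5′UTR (70 reads). In bulk liver, fewer cells of a type and fewer ribosomes on an mRNA per cell cannot be told apart.

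Among the 10 genes, ribosome occupancy was led by Gpx1, the cytosolic glutathione peroxidase, and by Selenop. Levels are given as CDS density, the scaled reads per kilobase of CDS (RPKM, scaled between libraries by the trimmed mean of M-values, TMM). Gpx1 had a mean of 1046 ± 172 RPKM (SD, n = 14) and ranked 46 among 11560 genes. Selenop had 734 ± 69.8 RPKM (SD, n = 14) and ranked 65. In all 14 libraries Gpx1 was the denser of the pair, with a mean log2 ratio of 0.50 ± 0.20 (SD). The order is reversed in reads, since the Selenop CDS is longer: Selenop had 32550 to 63164 CDS reads per library and Gpx1 22423 to 48894, and the ratio of Selenop to Gpx1 reads was 1.35 ± 0.190 (SD, n = 14).

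Both genes took most of the footprints on selenoprotein mRNAs. Over 24 selenoprotein genes, counted on 1 transcript per gene, Selenop held 41.4 ± 2.35% of the CDS reads and Gpx1 31.1 ± 2.73% (SD, n = 14). Together they held 69.6% to 75.4% in every library, and the 10 genes together 87.7 ± 1.23%. The joint share of this pair thus varied by few percentage points across the day and between mice.

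Below this pair came Msrb1, the methionine-R-sulfoxide reductase of cytosol and nucleus, at 280 ± 33.2 RPKM, and Gpx4, the phospholipid hydroperoxide peroxidase, at 118 ± 12.7 RPKM (SD, n = 14). Msrb1 was 2.63-fold below Selenop and 2.37-fold above Gpx4. The ER-resident Selenof, which binds the folding sensor UGGT, followed at 66.1 ± 9.93 RPKM. Dio1, the type 1 deiodinase that converts thyroxine to the active hormone, had 44.7 ± 9.63 RPKM. Each of these steps down held in all 14 libraries.

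The remaining 4 genes lay between 9.95 and 30.9 RPKM. Selenos, a membrane protein of ER-associated degradation, had 30.9 ± 3.52 RPKM, and was below Dio1 in 13 of 14 libraries. The cytosolic thioredoxin reductase Txnrd1 had 17.6 ± 1.81 RPKM and Selenok, an ER cofactor of protein palmitoylation, 15.8 ± 2.17 RPKM (SD, n = 14). The order of those 2 neighbours depends on the Txnrd1 reading frame. Over the longer frame, whose additional part was almost unread, Txnrd1 was the denser in 12 of 14 libraries, with a log2 ratio of 0.17 ± 0.18 (SD). Over the shorter frame (NM_015762) Txnrd1 had 21.5 ± 2.27 RPKM (SD, n = 14), above Selenok in 14 of 14 libraries, with a log2 ratio of 0.45 ± 0.18 (SD), and still below Selenos in all 14. The mitochondrial thioredoxin reductase Txnrd2 was lowest at 9.95 ± 1.66 RPKM and lay below Selenok in all 14 libraries. Even Txnrd2 stood above the median gene, which had 2.70 RPKM.

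**Figure D1:**
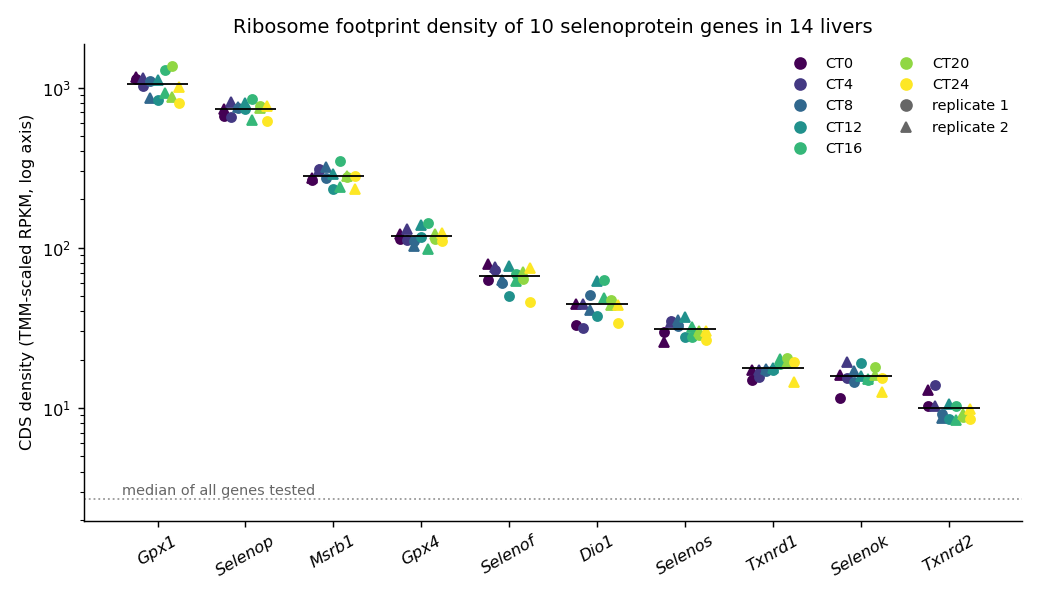
CDS density of each gene in TMM-scaled RPKM on a log axis, with 1 point per library coloured by circadian time, circles for replicate 1 and triangles for replicate 2. Horizontal bars are means over 14 libraries, and the dotted line is the median of 11560 genes, 2.70 RPKM. Txnrd1 is drawn over its longer reading frame, where it lies close to Selenok, and its mean over the shorter frame is 21.5 RPKM.

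No selenoprotein among the 10 passed the test for a 24-h rhythm of CDS reads. The test was a 24-h cosine fitted with edgeR's quasi-likelihood method over 17023 transcripts, those averaging 10 or more CDS reads, and a call needed a Benjamini-Hochberg adjusted p under 0.05. It called 1833 transcripts, or 10.8% of those tested, and 0 of the 10 genes. At an unadjusted p under 0.05, 1 of the 10 passed (Dio1), against 23.8% of all transcripts tested. DESeq2 called 0 of the 10, against 14% of all. A test for any difference among the 7 times, with edgeR, called 0 of the 10 against 6.84% of all, and 0 of the 10 at an unadjusted p under 0.05 against 17.8% of all.

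With TMM scaling the fitted swings were small beside those of other genes. The peak-to-trough difference of the fitted cosine had a median of 0.17 on the log2 scale over the 10 genes. Over all 11560 genes the median was 0.45, and over the 7911 genes with a mean of at least 100 CDS reads it was 0.37. In 9 of the 10 genes the swing was below the median of all genes. The coefficient of variation of the density over the 14 libraries had a median of 12.8% over the 10 genes and of 23.99% over all genes. Under total counts both rose, to a median swing of 0.54 log2 over the 10 genes (0.27 to 0.64) against 0.65 over all genes. These medians are descriptions, and the 10 genes are more deeply counted than most.

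**Figure D2:**
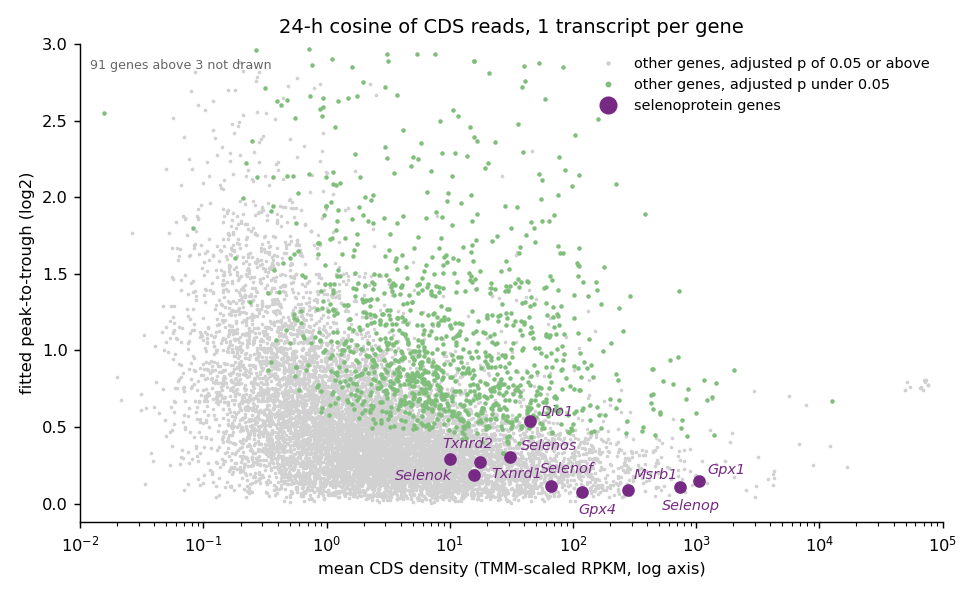
Fitted peak-to-trough difference (log2) of the 24-h cosine of CDS reads against mean CDS density (RPKM, log axis), with 1 point per gene. Genes with an adjusted p under 0.05 are green, other genes grey and the 10 selenoprotein genes purple. Of the 10, Dio1 has the widest swing, 0.54, and 91 genes above 3 are not drawn.

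With TMM scaling, Dio1 had the widest fitted course of the 10 genes. Under total counts its swing, 0.58 log2, was below those of Txnrd2 (0.64) and Gpx1 (0.61). Its CDS density was 33.1 and 44.6 RPKM in the 2 livers of CT0, 31.7 and 44.3 at CT4, 50.3 and 40.7 at CT8, and 37.2 and 62.3 at CT12. It was 63.2 and 48.9 RPKM at CT16, 47.2 and 44.1 at CT20, and 33.9 and 44.2 at CT24. The 2 livers of CT16 were both above the 2 livers of CT0, CT4, CT20 and CT24, whereas the livers of CT12 spanned almost the whole range. The mean was 56.1 ± 10.2 RPKM at CT16 and 38.0 ± 8.90 RPKM at CT4 (SD, n = 2), a ratio of 1.48. The fitted peak-to-trough difference was 0.54 log2 with the peak at 14.5 h, and edgeR gave an adjusted p of 0.116 (unadjusted 0.019). DESeq2 gave an adjusted p of 0.054. Without the library CT12 replicate 1, the edgeR fit passed at an adjusted p of 0.028, and it was 0.109 without CT20 replicate 2.

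Among the peroxide-removing enzymes, Gpx1 varied more between the 2 livers of a time than over time. Its density was 1369 RPKM in 1 liver of CT20, the highest of the 14, and 873 RPKM in the other. The highest mean, 1146 ± 32.3 RPKM at CT0, and the lowest, 908 ± 146 RPKM at CT24 (SD, n = 2), belong to the same phase of the cycle. The livers of CT0 had 1123 and 1169 RPKM, and those of CT24, taken 24 h later, 805 and 1011 RPKM. These 2 times were not tested against each other alone. Gpx4 ranged from 97.8 to 142 RPKM, and both of these extremes fell at CT16. The edgeR adjusted p was 0.847 for Gpx1 and 0.935 for Gpx4.

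Selenop had the lowest coefficient of variation of the 10 under TMM, 9.51%. Under total counts it was 20.9%, above those of Selenok (15.4%), Selenos (16.9%) and Txnrd1 (19.98%), and the fitted swings of Gpx4 (0.08 log2) and Msrb1 (0.09) under TMM were below that of Selenop (0.11). Its density was 619 to 851 RPKM, a ratio of 1.37 between the highest and the lowest library. The time means ran from 692 ± 102 RPKM at CT24 to 767 ± 50.0 RPKM at CT12 (SD, n = 2). The 2 livers of CT24 alone, at 619 and 764 RPKM, differed by more than these means. The edgeR adjusted p was 0.803.

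The 2 thioredoxin reductases gave different values over the day, and neither passed the test. Txnrd1 was 14.9 and 17.2 RPKM at CT0, had its highest mean, 19.8 ± 0.878 RPKM (SD, n = 2), at CT20 and was 19.3 and 14.6 RPKM at CT24, with an edgeR adjusted p of 0.352 and a fitted peak at 16.5 h. Txnrd2 was 10.3 and 12.9 RPKM at CT0 and 13.98 and 10.2 RPKM at CT4. From CT8 to CT24 it stayed between 8.43 and 10.5 RPKM. The edgeR adjusted p of Txnrd2 was 0.466, and its fitted peak was at 3.2 h. Whether the 2 courses differ from each other was not tested.

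The methionine sulfoxide reductase and the ER proteins were also without a call. Msrb1 ranged from 232 to 349 RPKM (adjusted p = 0.910, edgeR), with the extremes at CT12 and CT16. Selenof ranged from 45.8 to 79.4 RPKM (adjusted p = 0.891, edgeR), and its 2 livers of CT24, at 45.8 and 74.8 RPKM, spanned nearly that whole range. Selenos was 35.03 and 34.6 RPKM at CT4 and 29.7 and 25.8 RPKM at CT0, with a fitted peak at 8.3 h and an adjusted p of 0.297 (edgeR). Selenok ranged from 11.5 to 19.3 RPKM (adjusted p = 0.758, edgeR).

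The 14 libraries still allow a modest rhythm in each gene. A least-squares cosine was fitted to log2 CPM under TMM scaling. The largest peak-to-trough ratio in its joint 95% region was 1.33-fold for Selenop, 1.36-fold for Gpx4 and 1.43-fold for Msrb1. It was 1.48-fold for Txnrd1, 1.52-fold for Selenos, 1.55-fold for Selenok and Selenof, 1.63-fold for Gpx1 and 1.68-fold for Txnrd2. The widest allowance was 2.11-fold, for Dio1. The region included a swing of 0 for every gene except Selenos, whose lower bound was 0.0017 on the log2 scale. These bounds hold under TMM scaling and were not computed for total counts. There the edgeR swings of Gpx4 (0.51 log2) and Txnrd1 (0.563) exceeded the upper bounds (0.45 and 0.562), unlike those of the other genes.

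**Figure D3:**
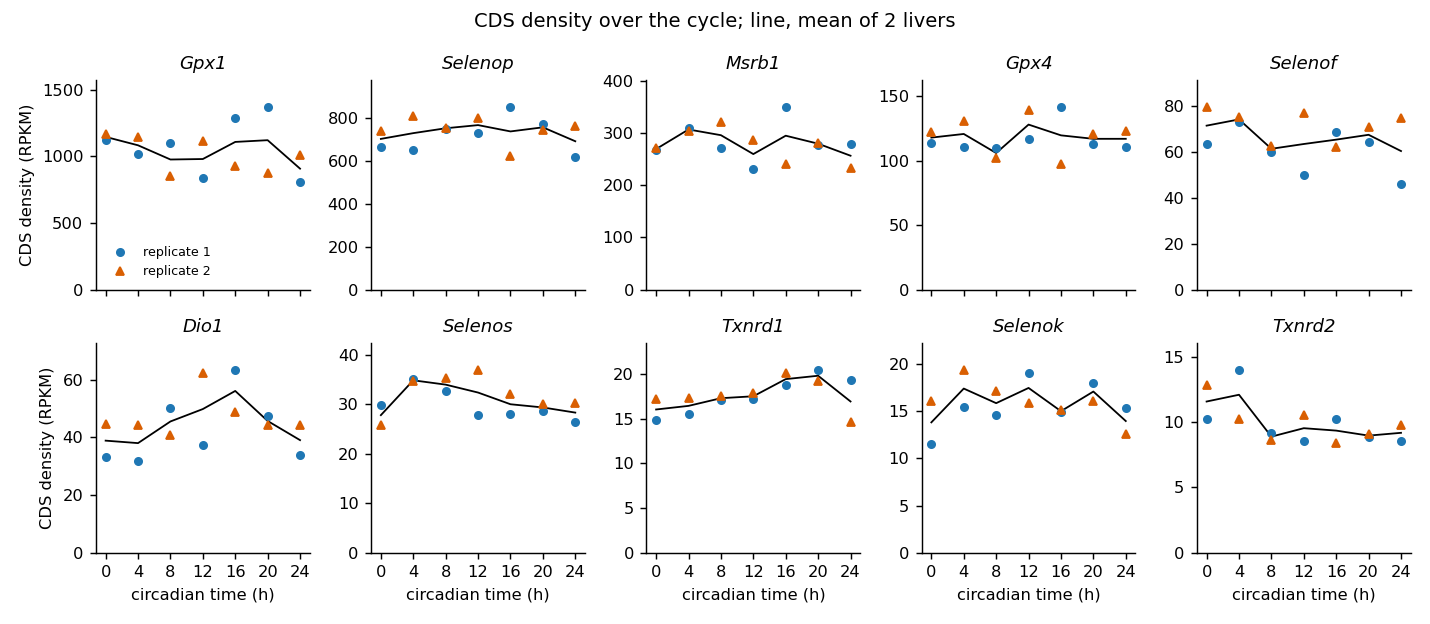
CDS density in TMM-scaled RPKM (vertical axes from 0) against circadian time for each gene, with circles for replicate 1, triangles for replicate 2 and a line through the means of 2 livers. The 2 livers of a time often differ as much as the times do, as for Gpx1 at CT20 (1369 and 873 RPKM).

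The scaling between libraries bore on these courses. Transcripts of the major urinary proteins (18 transcripts), abundant secreted proteins of male mouse liver, took 34.2% to 57.6% of the assigned reads of a library. The TMM factors ran from 0.738 (CT12 replicate 2) to 1.47 (CT0 replicate 1), and the log2 of the factor itself followed a fitted cosine of 0.46 peak to trough with its maximum at 22.4 h. Under plain total counts, that swing enters the level of each gene that is steady under TMM. Selenop then read 949 ± 39.9 RPKM at CT0 and 622 ± 42.0 RPKM at CT12 (SD, n = 2), and Txnrd2 read 15.6 ± 0.695 RPKM at CT0 and 7.55 ± 1.18 RPKM at CT8. The rank test JTK_CYCLE was run on CDS reads scaled by the assigned reads of all regions, in place of CDS reads alone. It passed 2 of the 10 genes, against 21.9% of all transcripts. These were Selenop and Txnrd2, with a P of 0.030 each and a peak at CT0. This P is not adjusted across transcripts, unlike that of the cosine test. With TMM scaling JTK_CYCLE called 0 of the 10, against 17.5% of all, and its P was 1 for Selenop and 0.823 for Txnrd2. With edgeR on total counts, the adjusted p was 0.394 for Selenop and 0.203 for Txnrd2.

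Reads in the 5′UTR, given for 9 of the 10 genes, differed widely between them. They are given as the share of 5′UTR plus CDS reads and as the density ratio, the 5′UTR reads per nucleotide over the CDS reads per nucleotide. The median gene had a share of 3.35% and a density ratio of 0.347. Gpx1 had a share of 0.643% and a density ratio of 0.0169, with 70 to 349 5′UTR reads per library, although its leader holds 2 upstream open reading frames. Msrb1 had 0.512%, Selenos 0.842% and Dio1 0.149%, all below the median gene. At least 1 upstream open reading frame (ATG to an in-frame stop codon within the leader) was found in Gpx1, Selenof, Selenok and 2 leaders of Txnrd1, and in 43.8% of all transcripts whose annotated 5′UTR matched the length in the files. The leaders of Msrb1 (66 nt in the files, 115 nt in the annotation) and Dio1 (25 and 50 nt) did not match. The annotated leader of Msrb1 held 1 upstream open reading frame as well.

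The leader of Gpx4 was all but free of reads. NM_008162 had 0 5′UTR reads in all 14 libraries beside 55015 CDS reads, which allows a share of up to 0.00545%, and NM_001037741 had 1. The 2 transcripts begin at different first exons. The CDS of NM_008162, which is the shorter, held 116 to 618 more reads per library than that of NM_001037741, a net excess of 4113 reads or 7.48%. The 5′UTR lengths in the files (144 and 30 nt) differ from those of the annotation used here (67 and 38 nt), so the place of the read-free stretch is not exactly known.

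Of the 3 annotated Selenop leaders, that of NM_009155 carried far more reads than the other 2, while the CDS and 3′UTR are shared. The transcripts start at chr15:3270977, chr15:3270811 and chr15:3270767 on the plus strand, in the order NM_009155, NM_001042614 and NM_001042613. NM_009155, with a 5′UTR of 90 nt, had 2789 to 7634 reads per library. NM_001042613 (73 nt) had 252 to 1101 reads and NM_001042614 (156 nt) 262 to 1101. Those 2 leaders share 28 nt and held nearly the same number of reads, 7585 and 7719 in all. The leader of NM_009155 shares 13 nt with each of the other 2 and exceeded both in 14 of 14 libraries. Over all libraries it held 8.05 times the reads of NM_001042613, and 3.85 to 14.7 times in single libraries. Per nucleotide it was 1.19 times as dense as the Selenop CDS, and denser than it in 10 of 14 libraries. This density ratio lay at percentile 87.3 of all genes.

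Over the cycle, the leader of NM_009155 had its most reads at CT8, with 7360 and 7634. It had 4096 and 4103 at CT0, 3284 and 3119 at CT4, 5689 and 3724 at CT12, and 3851 and 3428 at CT16. It had 3582 and 4475 at CT20, and 2789 and 3922 at CT24. The 2 livers of CT8 were above all others in reads. They had 10.5% and 13.0% of the 5′UTR plus CDS reads in the leader, against 6.49% to 9.52% in the other 12. The 24-h cosine of the ratio of 5′UTR to CDS reads did not pass (adjusted p = 0.961, limma, with a pseudocount of 0.5 reads).

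Txnrd1 has 4 annotated leaders, of which 3 overlap and held reads. The whole annotated leader of NM_015762 lies within that of NM_001042513, whose remaining part is shared with NM_001042514, so the reads of NM_001042513 cannot be told apart from those of the other 2. NM_001042513 (240 nt) had 48 to 193 reads per library, NM_001042514 (327 nt) 30 to 145 and NM_015762 (132 nt) 23 to 81. NM_001042523 (114 nt), which encodes the longer reading frame of 613 codons, had 16 reads in CT12 replicate 1, 6 in CT4 replicate 1 and 0 in the other 12 libraries. Its additional 343 nt of CDS held 174 reads in all, or 50.7 per 100 nt, against 1654 per 100 nt in the CDS shared with NM_015762. The shorter reading frame thus held nearly all Txnrd1 footprints.

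The Txnrd1 leaders were the nearest among the 10 genes to a rhythm of 5′UTR over CDS reads. The leader of NM_001042514 had 97 and 123 reads at CT0, 126 and 145 at CT4, and 136 and 81 at CT8. It had 63 and 99 reads at CT12, 60 and 30 at CT16, 31 and 85 at CT20, and 63 and 102 at CT24. Reads were more numerous at CT0 and CT4 than at CT16 in every liver. The fitted peak of the ratio was at 4.1 h, with a peak-to-trough difference of 1.70 log2, an unadjusted p of 0.0042 and an adjusted p of 0.809 (limma). NM_001042513, which shares 143 nt of leader with it, gave an unadjusted p of 0.0073. In limma's fit of 7640 transcripts, 0 passed the adjusted threshold (0% of those tested), and 4.93% had an unadjusted p under 0.05. Of the 11 transcripts of these genes that could be tested, 2 had one.

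**Figure D4:**
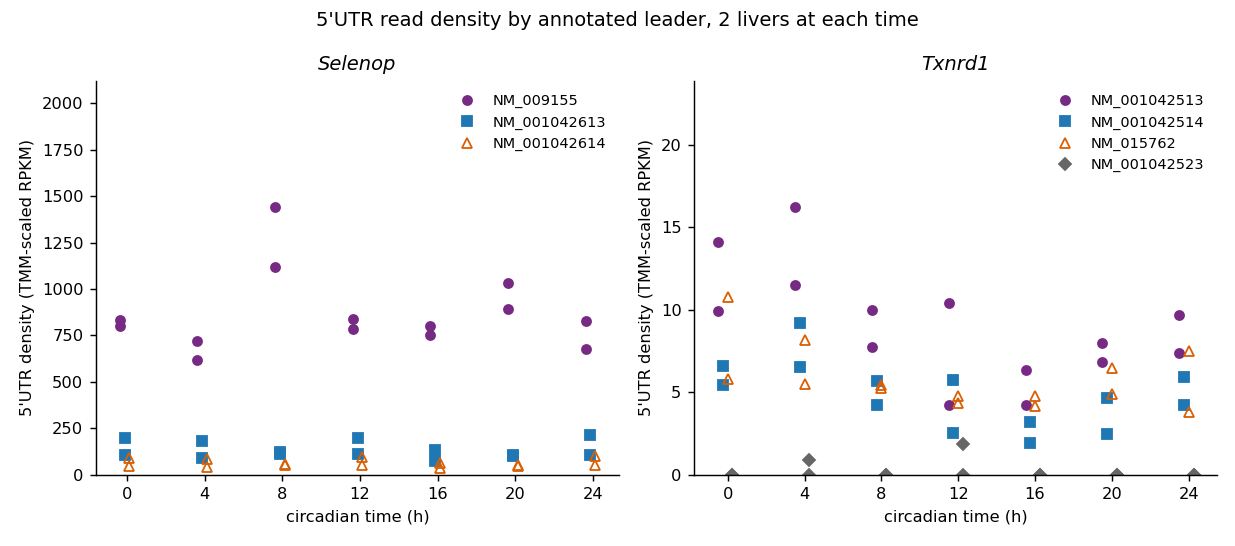
Read density of each annotated 5′UTR (TMM-scaled RPKM) against circadian time for Selenop and Txnrd1, with 1 symbol per liver and transcripts drawn side by side at each time. The Selenop leader of NM_009155 lies above the other 2 in every liver, and the Txnrd1 leader of NM_001042523 is at 0 in 12 of 14.

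Selenof, with 4 upstream open reading frames in a 298-nt leader, had a 5′UTR share of 1.75% (12 to 88 reads per library). Selenok, with 1, had 5.94%, from 0 reads in CT12 replicate 1 and CT20 replicate 1 to 44 in CT4 replicate 1. For Dio1, Selenos and Gpx4 the 5′UTR reads were too few to be tested.

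In the 3′UTR, where the SECIS elements lie, Selenok differed from the other genes. Its 3′UTR held 39 to 170 reads per library beside 182 to 415 CDS reads. That is 29.6% of 3′UTR plus CDS reads, against a median gene of 0.194%, and it lay at percentile 99.5 of all genes. The share ran from 11.5% to 48.3% between libraries. At CT4 the 2 livers had 48 and 166 reads and at CT8 40 and 121, so the livers of a single time differed up to several fold. No other annotated gene was found to overlap the Selenok 3′UTR. The cosine of the ratio of 3′UTR to CDS reads did not pass for Selenok (adjusted p = 0.738, limma).

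Selenop had 378 to 1838 reads in its 3′UTR, 1.91% of 3′UTR plus CDS reads and at percentile 91.5 of all genes. The livers of CT24 had 388 and 1815 reads, so these counts varied between mice of the same time. Of its 800 nt, 412 lie opposite an exon of Ccdc152, whose own CDS held 0 to 3 reads per library. Gpx1 (0.058%) was below the median gene, whereas Gpx4 (0.470%), Msrb1 (0.416%), Txnrd1 (1.16%) and Selenof (1.20%) were above it, each on at most 72 reads in a library. By the density ratio, Msrb1 (0.0032) was below the median gene (0.0040).

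No gene of the 10 passed for a rhythm of 3′UTR over CDS reads. Limma called 3 of 1220 transcripts tested, or 0.246%, and 0 of the 7 genes of the 10 that could be tested. Selenof was the nearest, with an unadjusted p of 0.044, against 5.98% of all transcripts under 0.05, and an adjusted p of 0.738.

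**Figure D5:**
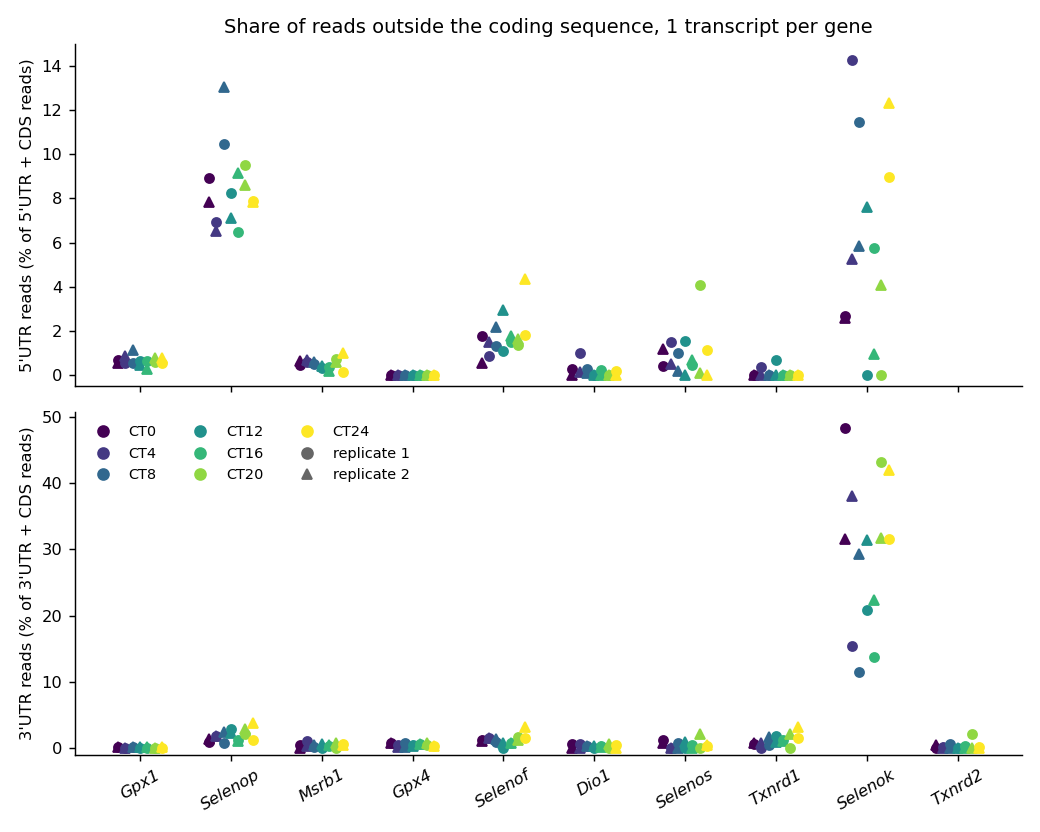
Reads in the 5′UTR (above) and 3′UTR (below) as a percentage of that region plus CDS reads, for 1 transcript per gene (Txnrd2 only in the 3′UTR) and 1 point per library coloured by circadian time, with circles for replicate 1 and triangles for replicate 2. In the 5′UTR, Selenop had a share of 6.49% to 13.0% and Gpx4 one of 0%, and in the 3′UTR Selenok leads with 29.6% over all libraries. Txnrd1 is drawn with the leader of NM_001042523, at 0.087% over all libraries, whereas its other leaders had 2.32%, 4.73% and 6.27%.

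A further 14 mouse selenoprotein genes were counted, and 10 of them had enough CDS reads to test. The densest were Sephs2, the selenophosphate synthetase that is itself a selenoprotein, at 119 ± 16.6 RPKM, Selenot at 36.8 ± 6.38 RPKM and Selenow at 33.1 ± 7.98 RPKM (SD, n = 14). Of the untested 4, Gpx2 and Dio3 had at most 7 CDS reads in a library, and Dio2 and Selenov had 0 in all 14, where a count of 0 allows up to 3 reads. Only Selenoi, an ethanolamine phosphotransferase of phospholipid synthesis, passed the cosine test, with 1 of 10 called and 3 at an unadjusted p under 0.05, near the 10.8% and 23.8% of all transcripts. Its density was highest at CT4, 21.4 ± 0.625 RPKM, and lowest at CT12, 12.5 ± 1.97 RPKM (SD, n = 2; adjusted p = 0.037, edgeR). The call was lost without any 1 of 8 libraries (either liver of CT4 or CT12, CT0 replicate 2, CT8 replicate 1, CT16 replicate 2 or CT24 replicate 2), with an adjusted p of up to 0.139 without CT12 replicate 1. It was also lost with the unexplained prefix of the library labels as a block (0.069).

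Of 14 genes for selenocysteine synthesis and insertion, all could be tested and 3 passed (7 at an unadjusted p under 0.05), where 10.8% of all transcripts passed (23.8% unadjusted). Sephs1, a paralogue of Sephs2 without selenocysteine, had 7.61 ± 0.262 RPKM at CT12 and 4.42 ± 0.464 RPKM at CT20 (SD, n = 2; adjusted p = 0.0051, edgeR). Rpl30, a ribosomal protein that also binds SECIS elements, had 99.1 ± 32.1 RPKM at CT12 and 29.8 ± 1.50 RPKM at CT4 (adjusted p = 0.022, edgeR). Nucleolin (Ncl), an RNA-binding protein of the nucleolus, had 22.2 ± 2.77 RPKM at CT12 and 12.0 ± 0.057 RPKM at CT0 (adjusted p = 0.030, edgeR). All 3 had their highest mean at CT12, but the fitted peaks were at 8.2 h for Sephs1, 16.8 h for Rpl30 and 14.05 h for Ncl. Under total-count scaling the adjusted p was 0.491 for Sephs1, 0.239 for Ncl and 0.040 for Rpl30. Rpl30 lost its call without either liver of CT4, CT8 replicate 1 or CT16 replicate 2 (adjusted p up to 0.095, without the last of these). Ncl lost it without either liver of CT0, CT4 or CT12, CT16 replicate 2 or CT24 replicate 1 (adjusted p up to 0.104, without CT12 replicate 1). The rank test JTK_CYCLE did not call Ncl with either scaling, with a P of 0.090 with TMM and of 0.064 with total counts. On total counts it also did not call Rpl30, with a P of 0.090, or Sephs1, with a P of 1. Secisbp2 (1.94 ± 0.264 RPKM), Eefsec (8.33 ± 0.913 RPKM), Sepsecs (8.32 ± 1.33 RPKM) and Pstk (2.39 ± 0.529 RPKM) were all without a call. Their means were below those of the 10 selenoproteins, although Sepsecs reached 11.3 RPKM in CT12 replicate 2, where Txnrd2 had 10.5. Other genes of this list were denser: Sephs2 (119 RPKM), Rpl30 (65.4), Scly (21.0) and Ncl (16.1) had means above that of Txnrd2 (9.95).

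Of 7 relatives without selenocysteine, 6 could be tested, and 0 passed the cosine test with edgeR (0 also at an unadjusted p under 0.05). Msra, the methionine-S-sulfoxide reductase, had 80.8 ± 7.31 RPKM, and glutathione reductase (Gsr) 15.4 ± 1.33 RPKM (SD, n = 14). Among 14 redox and ER partners, 2 passed and 3 had an unadjusted p under 0.05, near the shares of all transcripts (10.8% and 23.8%). The 2 were Gclc and Gss. Gclc, the catalytic subunit of glutamate-cysteine ligase, had 50.6 ± 3.35 RPKM at CT4 and 24.5 ± 1.97 RPKM at CT16 (SD, n = 2; adjusted p = 0.0001, edgeR). That call held under all alternatives run for it. Glutathione synthetase (Gss) had 21.3 ± 1.11 RPKM at CT12 and 13.7 ± 0.374 RPKM at CT20 (adjusted p = 0.021, edgeR), and lost the call under total counts (adjusted p = 0.995) and without CT12 replicate 2 (0.063). JTK_CYCLE on total counts did not call Gss, with a P of 1. Of the other genes of that list, Txn1 (230 ± 34.6 RPKM), Gclm (80.4 ± 5.49 RPKM), Derl1 (45.5 ± 3.30 RPKM) and Vcp (21.0 ± 2.41 RPKM) did not pass (SD, n = 14).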

How the data were processed

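Raw read counts per transcript region were deposited, 1 file per liver. Per the labels and methods, the authors clipped adapters, removed rRNA reads, aligned with Bowtie2 2.1.0.0 to mm10 and assigned footprints of 26 to 32 nt to A-site positions. A read within several transcripts is counted for each. Symbols came from RefSeq (GRCm38.p6), and 331 transcripts matched none. CDS reads were fitted with edgeR 4.0.16 (TMM, quasi-likelihood, 24-h cosine or 7 times) and ratios of UTR to CDS reads with limma 3.58.1. DESeq2 1.42.0 and a JTK_CYCLE implementation (lags every 2 h) were alternatives, as were blocks for the replicate number and the label prefix, and the scripts were tested on simulated data. Levels use the transcript of each gene with most CDS reads (lowest accession number in ties). All 10 genes were named, of other lists the genes past the threshold, with the 3 densest other selenoproteins, and further list genes were named after their values were seen. The 10 genes and the lists were chosen with earlier results of these data known. The CT24 livers follow the titles, since another label gives their time as CT0. The 5′UTR reads of Txnrd2 are not reported here. Limits for a count of 0 cover counting error only.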

Additional observations from a re-analysis of the deposited data

How the results depend on the processing

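Of the 10 genes, 0 passed the cosine test in 25 of 27 alternatives. The exceptions were JTK_CYCLE on total counts, with 2 (Selenop and Txnrd2), and the fit without CT12 replicate 1, with 1 (Dio1), so that leaving out each library in turn gave 0 to 1. All calls of the cosine test, 1833, were 1203 with 1 transcript per gene (fewer tested), 2975 with JTK_CYCLE on TMM values and 3725 with JTK_CYCLE on total counts (both at a P not adjusted across transcripts, so that test and threshold both differ), and 1405 to 1981 without 1 library. Calls for any difference among the times, 1164, were 2216 under total counts and 836 to 1361 without 1 library. Calls for the ratio of 3′UTR to CDS reads, 3, were 8 when averages of 30 or more counts were required and 0 to 3 without 1 library. The cause was not tested. Where replicate numbers were taken as a block, the cosine test called 1781 transcripts, the test of any difference 1219, and the ratios of 5′UTR and 3′UTR to CDS reads 0 each, with 0 of the 10 genes in all 4. Same-numbered livers share only a number: the deviations of first replicates from their time means correlated at -0.096 to 0.264 between times, over 0.1 in 3 of 21 pairs. With the counts of CT16 replicate 2 divided by 2 there were 1836 calls. Ratios of UTR to CDS reads rest on few reads: 7 of the 10 genes had enough in the 5′UTR and 7 in the 3′UTR, and a ratio that did not pass is not shown to be steady.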
